A study of Mus musculus with 4 samples.

Results

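Genes of contractile and vascular cells were followed through RNA of sorted meiotic germ cells. The 10 genes comprised 6 of smooth muscle (Acta2, Myh11, Tagln, Cnn1, Actg2 and Des) and 4 of endothelium (Pecam1, Cdh5, Kdr and Tek). They were chosen by symbol as standard markers of these cells, with earlier results of these data known. All 10 were found among the 23980 genes of the deposited table. Both sets were kept apart throughout, since the tubule wall and the vessel lining are different cells.

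The study asked how loss of Pld6, which makes germline small RNAs called piRNAs, or of Dnmt3l, a cofactor of de novo DNA methylation, alters transcription in male germ cells. Leptotene/zygotene (L/Z) spermatocytes were sorted by flow cytometry from F1 hybrids of C57BL6/J and MSM/Ms at 3 to 4 weeks of age, and 1 polyA(+) library was sequenced for each of 4 genotypes. A Dnmt3L heterozygote (Dnmt3L Het, carrying 1 mutant allele) and a Pld6 wild type (Pld6 WT) served as the 2 controls, and a Dnmt3L knockout (Dnmt3L KO) and a Pld6 KO were the 2 mutants. The labels do not say how many animals entered a library. Neither mutant has a replicate, and the controls differ in genotype and mouse line.

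Seminiferous tubules are wrapped by peritubular myoid cells, flat contractile cells that carry smooth muscle proteins and push sperm along the tubule. Blood vessels run between the tubules and are lined by endothelial cells, whose growth and survival depend on receptors for VEGF and angiopoietin. Neither is a germ cell. Vessel walls hold smooth muscle too, so the 6 contractile genes do not tell tubule wall from vessel wall, and they are called smooth muscle genes here.

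Fragments counted in genes ranged from 30439943 to 63875934 per library, which is more than the reads that the study's methods state, for a reason not found here. Counting intervals rest on these totals and would be wider with fewer reads. Pld6 was at 0.334 FPKM in the Pld6 KO against 17.2 and 19.5 FPKM in the Dnmt3L Het and the Pld6 WT, with 8.55 FPKM in the Dnmt3L KO. Dnmt3l, which was low in all libraries, had 0 fragments in the Dnmt3L KO (up to 3 are allowed by a count of 0), 101 in the Dnmt3L Het, 46 in the Pld6 WT and 20 in the Pld6 KO. Each targeted gene was thus lowest in its own knockout. FPKM is a count of fragments scaled for transcript length and library size, here by the authors' software. The 12 markers of L/Z spermatocytes summed to between 1066 FPKM (Dnmt3L KO) and 2864 FPKM (Pld6 WT). Against them, the 6 smooth muscle genes summed to 634 FPKM for the Dnmt3L Het and 142 FPKM for the Pld6 WT, beside 326 FPKM for the Dnmt3L KO and 598 FPKM for the Pld6 KO. The 4 endothelial genes summed to 7.07, 7.81, 6.59 and 23.5 FPKM in the same order. Smooth muscle transcripts were therefore lowest in the Pld6 WT, and endothelial transcripts were highest in the Pld6 KO. In such bulk RNA, fewer cells of a type and less RNA per cell cannot be told apart.

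Acta2 (chr19:34240336-34255585) encodes smooth muscle alpha-actin, the main thin-filament actin of contractile cells, and was the most abundant of the 10 genes in every library. Positions are those of RefSeq on GRCm38.p6. Its level was 359.5 FPKM (55330 fragments) for the Dnmt3L Het and 75.2 FPKM (7262 fragments) for the Pld6 WT, beside 206 FPKM (23200 fragments) for the Dnmt3L KO and 349 FPKM (26199 fragments) for the Pld6 KO. The Dnmt3L Het and the Pld6 KO were thus close together at the top, and the Pld6 WT stood far below all others. Within the Pld6 line the knockout was 4.63-fold above its control (95% counting interval 4.51 to 4.76), and within the Dnmt3L line the knockout was 1.74-fold below (1.71 to 1.77). These intervals cover counting error only. They say nothing of the spread between animals.

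Contractile genes share a known promoter element. Serum response factor (Srf) binds the CArG box, 2 C and 2 G that flank a core of A and T, and its coactivators of the myocardin family switch on smooth muscle genes through it. The following 30-base windows lie before the Acta2 start at position 34255373 on chromosome 19, which the RefSeq promoter table gives (GRCm38.p6, minus strand, 5′ to 3′). The span of the gene printed above reaches farther, to 34255585, so the windows lie inside it. They are given with the CArG-like letters in capitals and are shown because Acta2 made up 52.9% to 63.3% of the summed smooth muscle FPKM.
Acta2 bases 84 to 75 before the start, chr19:34255438-34255467: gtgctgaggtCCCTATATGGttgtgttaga
Acta2 bases 34 to 25 before the start, chr19:34255388-34255417: cgtctttgctCCTTGTTTGGgaagcgagtg
Each has 1 departure, a G or C, in the 6-letter core. Promoters of 5 of the 10 genes were in the RefSeq table (Acta2, Cnn1, Des, Kdr and Tek), each 250 bases before to 50 after the start. On either strand, a CArG box with at most 1 such departure was found in 9.98% of 32851 promoters, and 2 or more in 0.822%. The box without departure was found in 1.63% of them and in 0 of the 5. Cnn1 and Des had none in this window, and Kdr and Tek had 1 each. A match describes letters and is not evidence of binding.

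Myh11 (chr16:14194527-14292188), the smooth muscle myosin heavy chain that pulls on these actin filaments, was at 53.4 FPKM for the Dnmt3L Het and 15.5 FPKM for the Pld6 WT, beside 48.5 FPKM for the Dnmt3L KO and 80.1 FPKM for the Pld6 KO. It was the only smooth muscle gene of the 6 with its highest value in the Pld6 KO, at 1.50-fold above the higher control. The Pld6 KO was 5.16-fold above the Pld6 WT (4.98 to 5.34), the largest such ratio among the 10 genes. Its Dnmt3L KO value lay only 1.10-fold below that of the Dnmt3L Het (1.08 to 1.12), the smallest difference within that line among the smooth muscle genes.

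Tagln (chr9:45929628-45936058) and Cnn1 (chr9:22099221-22109221) encode transgelin and calponin, which bind actin filaments and regulate their contraction. Tagln was at 142 FPKM for the Dnmt3L Het and 36.0 FPKM for the Pld6 WT, beside 45.0 FPKM for the Dnmt3L KO and 126 FPKM for the Pld6 KO. Cnn1 was at 30.6, 5.42, 10.8 and 19.7 FPKM in the same libraries. For both, the Dnmt3L KO lay nearer to the Pld6 WT than to the control of its own line. Tagln was 3.16-fold lower in the Dnmt3L KO than in the Dnmt3L Het (3.04 to 3.29) and Cnn1 2.83-fold lower (2.63 to 3.04), while within the Pld6 line they were 3.49-fold (3.31 to 3.67) and 3.64-fold (3.24 to 4.09) higher in the knockout.

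Actg2 (chr6:83512909-83536251), the smooth muscle gamma-actin best known from the gut wall, behaved differently in the Pld6 line. It was at 35.1 FPKM (2538 fragments) for the Dnmt3L Het and 7.39 FPKM (335 fragments) for the Pld6 WT, beside 9.44 FPKM (498 fragments) for the Dnmt3L KO and 12.0 FPKM (425 fragments) for the Pld6 KO. The Dnmt3L Het was far above the other 3 libraries, which lay between 7.39 and 12.0 FPKM with their counting intervals apart. The Pld6 KO exceeded its control by 1.63-fold (1.41 to 1.89), the smallest ratio among the 10 genes in that line, and the Dnmt3L KO was 3.72-fold below its own control (3.38 to 4.10). Reads of near-identical actins can be split between genes. Of the distinct 50-base stretches in transcripts of Acta2, 0.326% also occurred in another gene, and of those in Actg2 none did, so at the read length of 50 bases few exact stretches were shared. The share was 0.340% for Myh11, with other myosins, and 0.998% for Pecam1. Des (chr1:75360292-75368579), the desmin of muscle intermediate filaments, was at 13.2, 2.55, 5.78 and 11.8 FPKM in the order used above. It followed Acta2, with a 4.64-fold ratio in the Pld6 line (4.08 to 5.29) and a 2.29-fold lower value in the Dnmt3L KO (2.11 to 2.48).

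**Figure D1:**
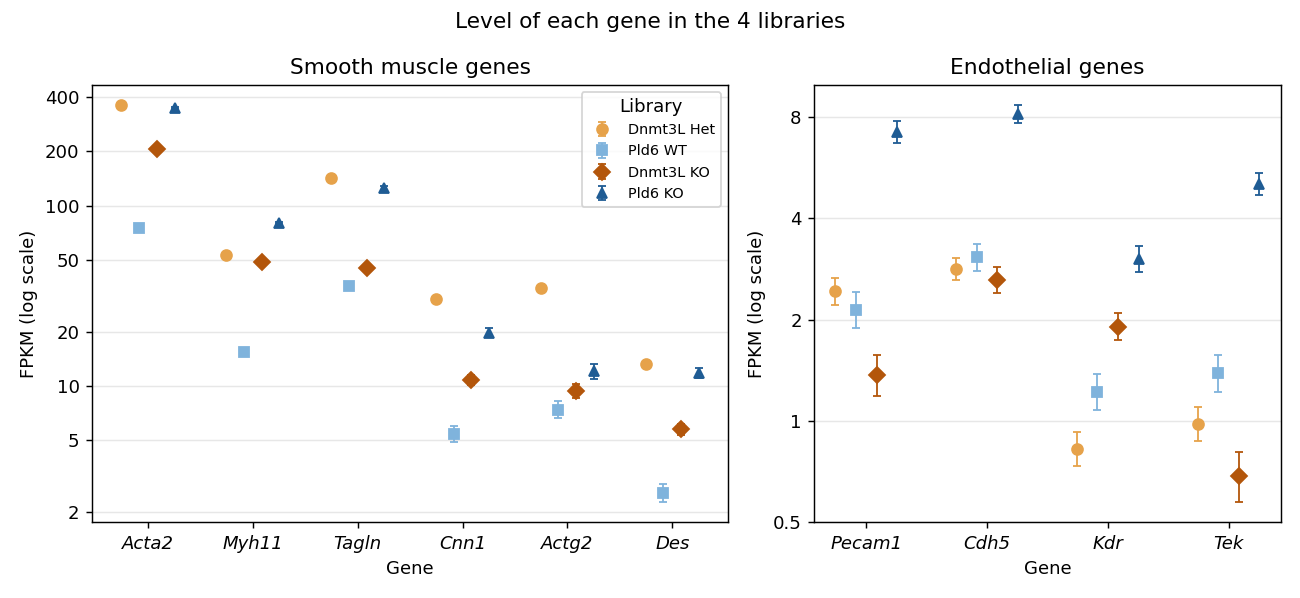
FPKM on a log axis of the 6 smooth muscle genes (left) and 4 endothelial genes (right) in the 4 libraries, 1 point per library, with bars for the 95% Poisson interval of the fragment count. The Pld6 WT is lowest for all 6 smooth muscle genes (Acta2 at 75.2 FPKM), and the Pld6 KO is highest for all 4 endothelial genes (Cdh5 at 8.18 FPKM).

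The endothelial genes were far lower and ordered otherwise. Cdh5 (chr8:104101613-104144504) encodes VE-cadherin, the adhesion protein of endothelial junctions, and was at 2.83 FPKM (696 fragments) for the Dnmt3L Het and 3.06 FPKM (472 fragments) for the Pld6 WT, beside 2.63 FPKM (471 fragments) for the Dnmt3L KO and 8.18 FPKM (982 fragments) for the Pld6 KO. Pecam1 (chr11:106654213-106715281), the adhesion molecule CD31 of endothelium and some blood cells, was at 2.43, 2.14, 1.37 and 7.23 FPKM. In both genes the Pld6 KO stood clear of the other 3 libraries, and the counting intervals of the 2 controls overlapped, as did those of the Dnmt3L Het and the Dnmt3L KO for Cdh5. No other neighbours in the order of the libraries overlapped in any of the 10 genes. The ratio within the Pld6 line was 2.67-fold for Cdh5 (2.39 to 2.99) and 3.37-fold for Pecam1 (2.93 to 3.90). Within the Dnmt3L line, Cdh5 was 1.08-fold lower in the knockout, with an interval (0.958 to 1.22) that includes no difference, and Pecam1 was 1.77-fold lower (1.50 to 2.10).

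Tek and Kdr are the receptors of the set. Tek (chr4:94739086-94874976), or TIE2, binds angiopoietins and was at 0.983 FPKM (287 fragments) for the Dnmt3L Het and 1.39 FPKM (251 fragments) for the Pld6 WT, beside 0.684 FPKM (142 fragments) for the Dnmt3L KO and 5.06 FPKM (722 fragments) for the Pld6 KO. This was 3.65-fold above the Pld6 WT (3.16 to 4.23), the higher of the controls, and the Dnmt3L KO was 1.44-fold below its own control (1.17 to 1.77). Kdr (chr5:75932827-75979072), the main VEGF receptor of endothelium, was at 0.827 FPKM (282 fragments), 1.22 FPKM (261 fragments), 1.91 FPKM (475 fragments) and 3.03 FPKM (504 fragments) in that order. It alone among the 10 genes was higher than the own-line control in both mutants, at 2.48-fold in the Pld6 line (2.13 to 2.89) and 2.31-fold in the Dnmt3L line (1.99 to 2.68).

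Calls were then set against the background of other genes, on the scale of log2 ratios of FPKM + 1, which understates the change of low genes. A gene was counted when it differed by more than 2-fold on this scale. The background comprised the 14416 genes with a mean of at least 1 FPKM, which includes all 10. The other gene lists given below were not filtered by level. Some of their genes, such as Flt4, Kcnmb1 and Angpt1, had a mean under 1 FPKM and are not in that background. Within the Pld6 line 5 of 6 smooth muscle genes and 3 of 4 endothelial genes were more than 2-fold higher in the knockout, against 7.41% of the background, and 0 of 10 were lower, against 9.95%. The exceptions were Actg2 (0.64) and Kdr (0.86). As a plain ratio of FPKM, Kdr exceeded 2-fold too. Median log2 differences were 1.81 for smooth muscle and 1.26 for endothelium, where the background had 0.00667. Within the Dnmt3L line 4 of 6 smooth muscle genes (Tagln, Cnn1, Actg2 and Des) and 0 of 4 endothelial genes were more than 2-fold lower in the knockout (background 12.0%), and 0 of 10 were higher (background 4.61%). As a plain ratio of FPKM, Kdr was more than 2-fold higher in this line too (2.31-fold). The log2 medians were -1.24 and -0.16, against 0.0633. With no threshold on size, 9 of the 10 genes (all but Kdr) were above the control in the Pld6 line and below it in the Dnmt3L line, as were 14.1% of the background.

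The same count between the controls showed how far 2 libraries without a knockout can differ. In the Dnmt3L Het all 6 smooth muscle genes exceeded the Pld6 WT by more than 2-fold, at a median of 2.05 and ratios of 3.44-fold (Myh11) to 5.64-fold (Cnn1), as did 17.6% of the background. Lower values were found for 0 of 10 genes, against 6.10%. None of the 4 endothelial genes passed in either direction, and their ratios of Dnmt3L Het to Pld6 WT ranged from 0.678 (Kdr) to 1.14 (Pecam1). The gap between the controls in smooth muscle genes was thus of similar size to that between the Pld6 KO and its control.

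**Figure D2:**
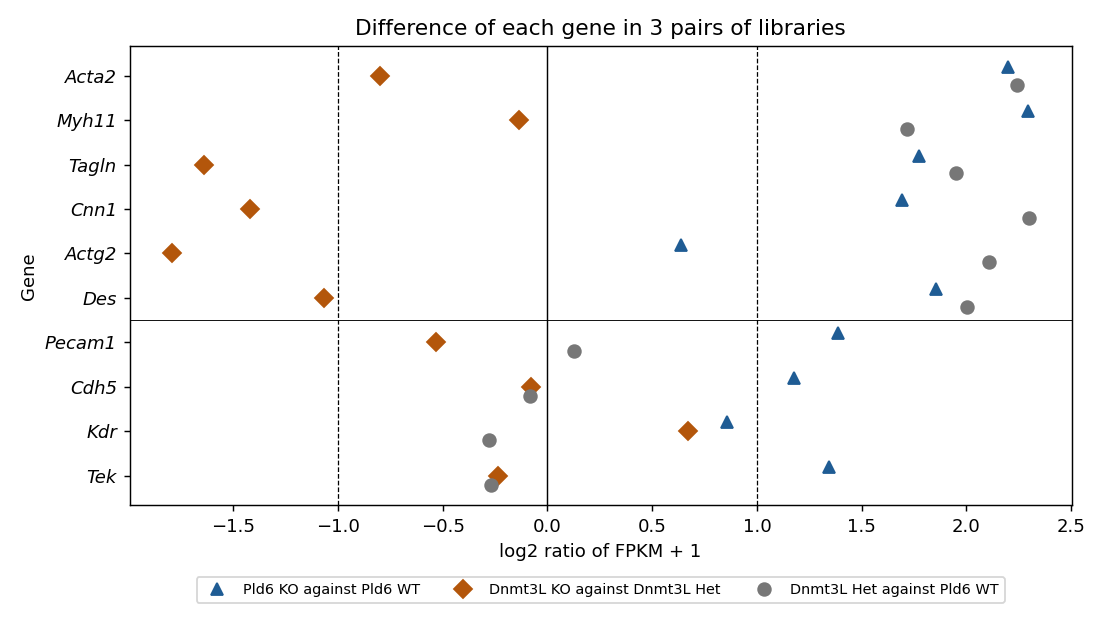
Log2 ratio of FPKM + 1 for each of the 10 genes in 3 pairs of libraries, 1 library on each side, with dashed lines at 2-fold and a solid horizontal line between smooth muscle (above) and endothelial genes (below). All 6 smooth muscle genes are positive between the controls and in the Pld6 line and negative in the Dnmt3L line, whereas endothelial genes are near 0 between the controls and between 0.86 and 1.39 in the Pld6 line.

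A mutant library was also required to lie beyond both controls. In the Pld6 KO, 3 of 4 endothelial genes (Pecam1, Cdh5 and Tek) and 0 of 6 smooth muscle genes were more than 2-fold above both, against 1.51% of the background, and 0 of 10 were below both (background 8.57%). When the Dnmt3L Het was left out the count above was 8 of 10, since 5 smooth muscle genes then entered, and without the Pld6 WT it was 4, all endothelial, where 8.64% of the background was more than 2-fold above the Dnmt3L Het and 20.3% below. In the Dnmt3L KO, 0 of 10 genes lay beyond both controls in either direction, against 3.29% above and 9.16% below in the background. Without the Pld6 WT, 4 genes of smooth muscle were below (background 12.0%), and without the Dnmt3L Het, Acta2 and Myh11 were above. Against the Pld6 WT alone, 19.1% of the background was above and 13.7% below.

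The model with both controls gave no call, and its residual spread came only from the gap between those 2 controls. With p-values of the edgeR quasi-likelihood fit adjusted over 18657 genes (Benjamini-Hochberg), 0 of the 10 were under 0.05 for either knockout, as were 0.00% of all genes tested for each. At an unadjusted p under 0.05, edgeR had 102 genes higher and 1383 lower in the Pld6 KO, and 203 higher and 1440 lower for the Dnmt3L KO. The residual degrees of freedom numbered 1. Of the 10, 1 was among these, Tek in the Pld6 KO, with a log2 change of 2.05 ± 0.77 (SE) and an edgeR adjusted p of 0.523. The adjusted p of the other endothelial genes in the Pld6 KO was 0.720 to 0.800, and that of the smooth muscle genes 0.941 to 1.0. In the Dnmt3L KO the 10 genes had an edgeR adjusted p of 0.914 to 0.997. DESeq2 likewise called 0 of the 10. Of the 17801 genes to which DESeq2 gave an adjusted p, 5.46% were called in the Pld6 KO (15 higher and 957 lower). For the Dnmt3L KO 5.26% were called (17 higher and 919 lower). The lowest DESeq2 adjusted p for a member was 0.262, for Tek in the Pld6 KO.

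Most other contractile genes were higher in the Pld6 KO than in its control as well. Of 16 further genes of the actomyosin apparatus, 10 exceeded the Pld6 WT by more than 2-fold (FPKM + 1) in the Pld6 KO. The background share was 7.41%. Lower values were found for 0 (background 9.95%), and the median log2 difference was 1.41. Above both controls were 2 of 16 (Smtn and Flna, named after their values were seen), against 1.51% of the background. In the Dnmt3L KO 0 were higher (background 4.61%) and 1 (6.25%, background 12.0%) lower than in the Dnmt3L Het, with a median of -0.25. The lower gene was Tpm2, a tropomyosin named after its values were seen, at 31.0 and 68.8 FPKM. Between the controls 7 of 16 were higher in the Dnmt3L Het (background 17.6%), with a median of 0.74. Myl9, the regulatory light chain of smooth muscle myosin, was at 589 FPKM for the Dnmt3L Het and 78.9 FPKM for the Pld6 WT, beside 369 FPKM for the Dnmt3L KO and 399.9 FPKM for the Pld6 KO. Tpm1, a tropomyosin that lies along the actin filament, was at 156, 41.2, 112 and 147 FPKM, and Csrp1, a LIM-domain protein of the actin cytoskeleton, at 129, 32.4, 79.1 and 121 FPKM. As for Acta2, the Pld6 WT was lowest in all 3 genes. None of the 16 passed edgeR in either mutant (0 at an unadjusted p under 0.05), and DESeq2 called 0.

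The regulators of the CArG box were looked at beside their targets. Srf was at 17.7 FPKM for the Dnmt3L Het and 16.8 FPKM for the Pld6 WT, beside 23.4 FPKM for the Dnmt3L KO and 21.0 FPKM for the Pld6 KO. Its broadly expressed coactivators Mkl1 and Mkl2 had their lowest values, 6.31 and 11.9 FPKM, in the Dnmt3L Het. Their highest values, 14.7 and 22.1 FPKM, were in the Pld6 KO. Which cells these transcripts came from, and any part in the smooth muscle levels, was not tested. Myocd, the coactivator of muscle cells, was at 0.255 to 0.846 FPKM in the 4 libraries. On the FPKM + 1 scale 0 of these 4 regulators were more than 2-fold apart in any of the 3 pairs of libraries. As a plain ratio of FPKM 1 was, Myocd, with its highest value in the Pld6 KO (128 fragments) and its lowest in the Pld6 WT (51 fragments), and with 0.533 FPKM in the Dnmt3L Het.

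Further endothelial genes showed the high values of the Pld6 KO again. Of 22 such genes, 17 (77.3%) were highest in the Pld6 KO, as were 4 of 4 in the set itself, whereas 23.8% of the background genes had their highest value there. High shares there were not particular to endothelial genes. They were 8 of the 16 further contractile genes, 3 of the 4 Srf regulators, 5 of 7 vessel ligands and 4 of 7 stromal markers. The shares were low for the smooth muscle set (1 of 6) and for Leydig (1 of 7), Sertoli (0 of 12) and macrophage markers (0 of 8). The other genes of the 22 were Erg and Sox7 (highest in the Pld6 WT), Ecscr (Dnmt3L Het), and Plvap and Tal1 (Dnmt3L KO). They were named after their values were seen. More than 2-fold differences from the Pld6 WT were found for 8 of the 22, all higher, against 7.41% of the background. The median log2 difference was 0.74 (FPKM + 1). Above both controls were 4 of 22 (Eng, Esam, Vwf and Ptprb, named after their values were seen). In the set itself 3 of 4 were, and in the background 1.51%. In the Dnmt3L KO 12 of the 22 (54.5%) had their lowest value, against 25.5% of the background. More than 2-fold below the Dnmt3L Het were 3 (13.6%, near the background of 12.0%). They were Cldn5 and, named after their values were seen, Sox17 and Icam2. As a plain ratio of FPKM 6 of the 22 were more than 2-fold lower and 2 higher, a scale on which the background was not counted. Egfl7, a protein that endothelial cells secrete, was the most abundant, at 20.1 FPKM for the Dnmt3L Het and 23.2 FPKM for the Pld6 WT, beside 14.4 FPKM for the Dnmt3L KO and 34.1 FPKM for the Pld6 KO. Cd34, a surface glycoprotein of endothelium and blood progenitors, was at 13.7, 7.08, 10.9 and 22.4 FPKM. Cldn5, a tight junction protein of endothelium, was at 14.2 FPKM (1121 fragments), 8.80 FPKM (435 fragments), 2.78 FPKM (160 fragments) and 19.9 FPKM (765 fragments). The Dnmt3L KO was thus the low library for Cldn5 and the Pld6 KO the high one. By edgeR 0 of the 22 passed in either mutant, with Ptprb higher in the Pld6 KO and Sox17 lower in the Dnmt3L KO at an unadjusted p under 0.05 (1 gene each), and DESeq2 called 0.

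The ligands of the VEGF and angiopoietin receptors were looked at beside Kdr and Tek. Vegfb, a ligand of the related receptor Flt1, was at 19.0, 17.5, 11.1 and 19.8 FPKM in the Dnmt3L Het, Pld6 WT, Dnmt3L KO and Pld6 KO, and Vegfa, the principal ligand of Kdr, at 5.20, 2.60, 5.13 and 6.15 FPKM. The third most abundant, Figf (VEGF-D), was at 0.607 FPKM (66 fragments), 0.645 FPKM (44 fragments), 4.13 FPKM (328 fragments) and 1.21 FPKM (64 fragments), so that it alone was high in the Dnmt3L KO, with an edgeR adjusted p of 0.384. The ligands of Tek were low, with Angpt1 at 0.154, 0.155, 0.118 and 0.445 FPKM and Angpt2 at 1.09, 0.731, 0.860 and 2.36 FPKM. On the FPKM + 1 scale 1 of the 7 ligands, against 7.41% of the background, exceeded the Pld6 WT by more than 2-fold in the Pld6 KO. It was Vegfc, a ligand of lymphatic vessels, at 0.702 and 3.12 FPKM. As a plain ratio of FPKM 4 did (Vegfa, Vegfc, Angpt1 and Angpt2), a scale on which the background was not counted. Between the Dnmt3L KO and the Dnmt3L Het, 1 of the 7 (Figf) was more than 2-fold higher on the FPKM + 1 scale (background 4.61%). Lower on it were 0 (background 12.0%). By the plain ratio 1 (Figf) was higher and 2 were lower. These 2 were Vegfc (14 fragments in the Dnmt3L KO against 68) and Pgf (51 against 141). Vegfc, Pgf and the angiopoietins were named after their values were seen.

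**Figure D3:**
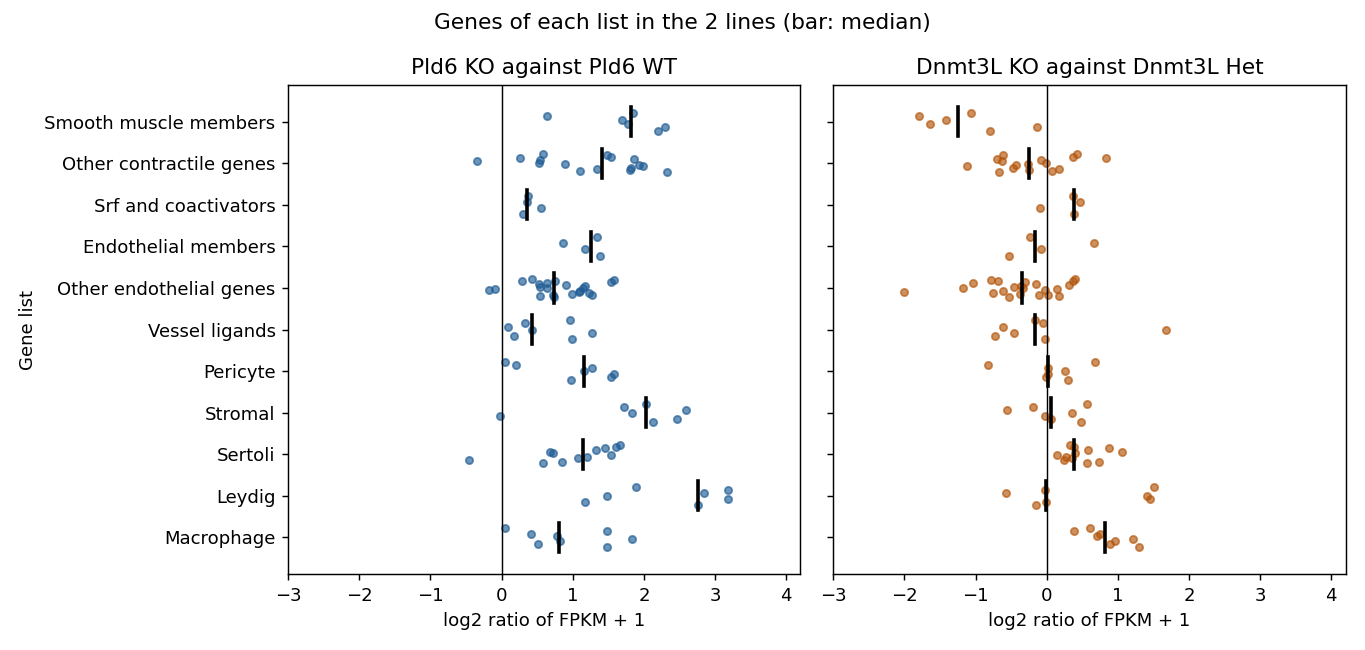
Log2 ratio of FPKM + 1 for each gene (points) and the median (bar) of 11 gene lists (erythroid, striated muscle, L/Z and spermatid lists are not drawn), in the Pld6 line (left) and the Dnmt3L line (right), 1 library on each side. In the Pld6 line both member sets lie to the right of 0 (medians 1.81 and 1.26), as do Leydig (2.76) and stromal genes (2.03), and in the Dnmt3L line smooth muscle members have the lowest median of the lists drawn (-1.24).

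Markers of other somatic cells also differed between the libraries, and their part in the result was not tested. Stromal markers (7 genes) summed to 145 FPKM for the Dnmt3L Het and 25.8 FPKM for the Pld6 WT, beside 145 FPKM for the Dnmt3L KO and 148 FPKM for the Pld6 KO, and 6 of 7 were more than 2-fold higher in the Pld6 KO than in the Pld6 WT. Leydig cell markers (7 genes) summed to 331, 25.9, 333 and 237 FPKM, and all 7 passed that threshold. Sertoli cell markers (12 genes) summed to 4002, 142, 5590 and 384 FPKM, with 7 of 12 past it. Macrophage markers (8 genes) summed to 61.5, 18.9, 119 and 46.9 FPKM, with 3 of 8 past it. Of the background genes 7.41% passed it. Their most abundant genes had the same low library. Dcn, a matrix proteoglycan of stromal cells, was at 77.8, 11.2, 81.1 and 66.3 FPKM, and Tcf21, a transcription factor of stroma, at 37.4, 4.22, 25.0 and 30.4 FPKM. Insl3 and Cyp17a1, a hormone and a steroid enzyme of Leydig cells, were at 14.7 and 4.82 FPKM in the Pld6 WT and at 142 and 41.0 FPKM in the Pld6 KO. Clu and Aard of Sertoli cells were at 74.9 and 22.3 FPKM in the Pld6 WT and at 189.9 and 72.5 FPKM in the Pld6 KO, and Lyz2 and C1qb of macrophages at 2.82 and 5.54 FPKM against 12.6 and 7.74 FPKM. The Pld6 WT was the lowest library for all 4 of these sums, as it was for smooth muscle. In the Dnmt3L line, beside -1.24 for the smooth muscle members, the medians were 0.0591 for stromal, -0.0122 for Leydig, 0.0221 for pericyte, 0.0834 for striated muscle, 0.39 for Sertoli and 0.82 for macrophage markers. Erythroid (-2.21), L/Z (-0.77) and spermatid markers (-5.95) were lower in the Dnmt3L KO.

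Pericyte markers, of the contractile cells around small vessels, had their highest sum where the endothelial set did. The 7 genes summed to 70.8 FPKM for the Dnmt3L Het and 85.5 FPKM for the Pld6 WT, beside 82.8 FPKM for the Dnmt3L KO and 199 FPKM for the Pld6 KO, most of it Mcam (61.0, 80.1, 72.8 and 179 FPKM). Rgs5, a regulator of G protein signalling typical of pericytes, was at 2.61, 2.22, 2.57 and 8.36 FPKM. Both had their highest value in the Pld6 KO, as had Notch3, Pdgfrb and Cspg4, which gives 5 of 7 genes (background 23.8%). The others, Kcnj8 (highest in the Dnmt3L Het, 2.35 FPKM, against 0.445 FPKM in the Pld6 KO) and Abcc9 (highest in the Dnmt3L KO, 2.03 FPKM, against 0.286 FPKM), are channel subunits and were named, like those 3, after their values were seen. Among 9 genes of striated muscle, Actc1, Ckm and Mb were at 0 fragments in at least 1 library. Tnnt2 had 57.7, 6.36, 32.5 and 40.9 FPKM, and Acta1, the skeletal muscle actin, had 5.55, 3.51, 8.05 and 2.93 FPKM. Of 7 erythroid genes 0 were more than 2-fold higher in the Pld6 KO than in the Pld6 WT (background 7.41%). Lower by that margin were 2 (Hba-a2 and Hbb-b1), against 9.95% of the background. The sums of the 7 genes were 847, 35.5, 179 and 19.0 FPKM. The globins Hbb-b1 and Hba-a1 led them, at 349.6 and 308 FPKM in the Dnmt3L Het and 5.88 and 7.95 FPKM in the Pld6 KO. Spermatid markers (10 genes) summed to 7254, 275, 75.1 and 49.4 FPKM, led by Prm1 and Tnp1 (2372 and 2007 FPKM in the Dnmt3L Het). Among the L/Z markers Sycp3 and Syce2, of the synaptonemal complex, were at 431 and 262 FPKM in the Pld6 KO and 782 and 465 FPKM in the Pld6 WT.

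Proportions among the smooth muscle genes were compared within each library, where the scaling of the library cancels out. The pairs named were chosen after their values were seen. Acta2 stood to Actg2 as 10.2 in the Dnmt3L Het and 10.2 in the Pld6 WT, and as 21.9 and 28.9 in the Dnmt3L KO and the Pld6 KO. Myh11 stood to Actg2 as 1.52, 2.10, 5.14 and 6.65, and to Tagln as 0.375, 0.431, 1.08 and 0.637. In each case both mutants lay above both controls. Of the 15 pairs among the 6 genes, 12 had both mutants on the same side of both controls, and of the 6 endothelial pairs 0 did. In 9 of the 12 the counting intervals were apart as well. Other gene pairs were not examined, so how often pairs of other genes separate in this way is not known. The pairs counted share genes and libraries and are a description of 4 libraries. They were given no test. The ratio of summed smooth muscle to summed endothelial FPKM was 89.6 for the Dnmt3L Het and 18.2 for the Pld6 WT, beside 49.5 for the Dnmt3L KO and 25.4 for the Pld6 KO, so the 2 sets did not come in a fixed proportion.

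**Figure D4:**
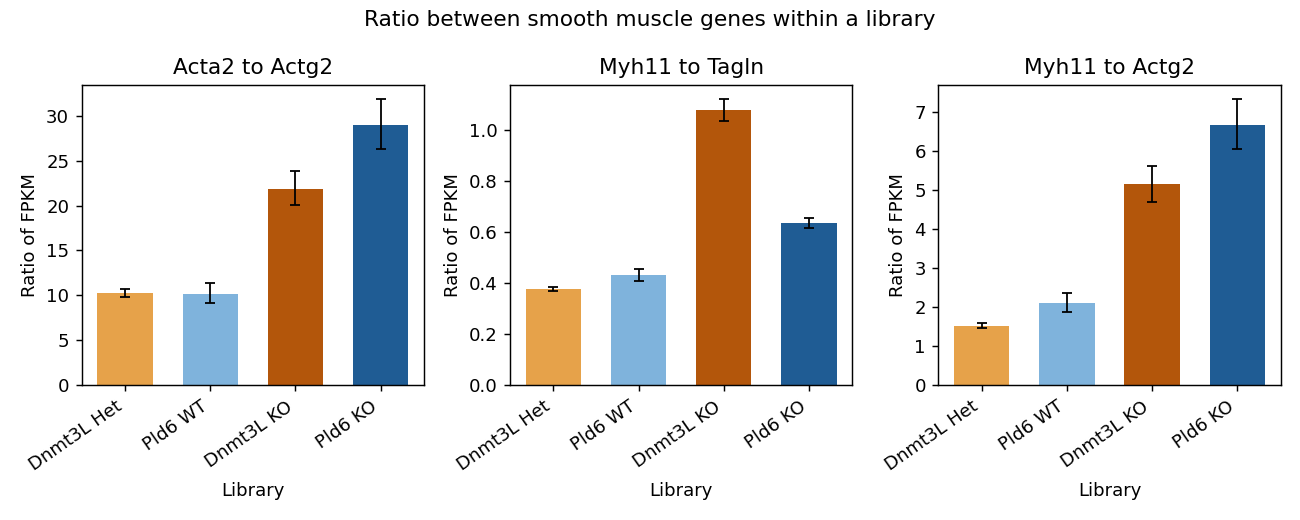
Ratio of FPKM between pairs of smooth muscle genes within each library, with bars from 0 and lines for the 95% interval from counting error. The pairs were chosen after their values were seen. Acta2 to Actg2 is 10.2 in both controls and 21.9 and 28.9 in the mutants, and Myh11 to Actg2 is at most 2.10 in the controls and 5.14 and 6.65 in the mutants.

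The genes most like each set were found by the distance between centred log2(FPKM + 1) profiles over the 4 libraries, among 14295 genes that are in none of the lists used here. Closest of these to the mean of the smooth muscle genes were Sectm1a (distance 0.17), Klk1b21 (0.30), Rhoj (0.33), Ptgis (0.36) and Prkcdbp (0.36), where the 6 genes themselves lay 0.12 to 0.95 from their mean. Of the listed genes, Tpm2 (0.23), Ecscr (0.28, from the endothelial list) and Csrp1 (0.33) were as near. Ptgis was at 33.2, 5.87, 17.1 and 28.3 FPKM in the Dnmt3L Het, Pld6 WT, Dnmt3L KO and Pld6 KO. Closest of the unlisted genes to the endothelial mean were Wscd1 (0.11), Grip2 (0.11), Gpc3 (0.20), Mogs (0.21) and Tnfsf13b (0.21), where the 4 genes lay 0.0424 to 0.67 away. Eng (0.0760) and Notch3 (0.0990), which are listed genes of vessels, were nearer than these. Mogs was at 30.4, 36.3, 29.2 and 68.6 FPKM. With 4 libraries many unrelated genes can have a like profile.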

How the data were processed

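PolyA(+) RNA of FACS-purified L/Z spermatocytes was sequenced by the authors as stranded single reads of 50 bp, 1 library per genotype, and processed with TopHat2 and Cuffdiff, per the study's methods, on mm10, per the submitters' processing notes (full versions not given in the sources used here). The deposited table gives, per gene and library, an estimated count of fragments before scaling (97.3% to 97.4% whole numbers) and FPKM scaled by the authors' tool. No value of the 10 genes was marked as failed. Its other columns were not used. The labels name no separate animals, so p-values measure only the spread between these libraries.

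Members and gene lists were chosen with earlier results of these data known. All 10 members were named, as were the 3 most abundant genes of each pathway list, the 2 most abundant of each list of other cells, and the 5 nearest profiles among genes in no list. Log2 ratios used FPKM + 1. Counting intervals (95%) are Poisson for a level and Clopper-Pearson for a ratio, without allowance for PCR duplicates, since reads carried no molecular identifiers. Estimated counts were rounded and tested in edgeR 4.0.16 (TMM, filterByExpr, quasi-likelihood, Benjamini-Hochberg) with the 2 controls as 1 group, and in DESeq2 1.42.0, in R 4.3.3. Line was not a term, since 0 residual degrees of freedom would be left. The edgeR code was run on simulated counts with less spread than these libraries show, which does not measure its power here. Gene positions and promoters came from RefSeq (GRCm38.p6, the coordinates of mm10), and transcripts for shared stretches from GENCODE M21. Symbols listed in 2 spellings were matched by the spelling in the table. Alternatives were another pseudocount, scaling, filter, threshold, model and set of controls.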

Additional observations from a re-analysis of the deposited data

Results flagged for a closer look

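For 9 of the 10 genes the Pld6 KO lay above the Pld6 WT while the Dnmt3L KO lay below the Dnmt3L Het, as did 14.1% of the genes with a mean of at least 1 FPKM. Cdh5, counted among the 9, had an interval in the Dnmt3L line (0.958 to 1.22) that includes no difference. Single libraries allow no test here, so whether both lines differ was not tested. The log2 difference in the Pld6 line minus that in the Dnmt3L line was 2.99 for Acta2, 2.43 for Myh11, 3.41 for Tagln, 3.11 for Cnn1, 2.43 for Actg2 and 2.92 for Des. For the endothelial genes it was 1.92 for Pecam1, 1.26 for Cdh5 and 1.58 for Tek. Kdr was higher than the control in both lines. The medians of the sets differed by 3.06 for smooth muscle and 1.42 for endothelium, and those of the further contractile genes, endothelial genes and vessel ligands by 1.66, 1.09 and 0.59. Of the 12 further pathway genes named, 8 also had opposite signs, with differences of 3.00 for Myl9, 2.29 for Tpm1, 2.56 for Csrp1, 0.99 for Egfl7, 1.84 for Cd34, 3.10 for Cldn5, 0.89 for Vegfb and 1.01 for Vegfa. In the smooth muscle set the direction of the median in each line turned when the control of the other line was used instead. Myh11 in the Pld6 KO did not turn, at 1.50-fold above the Dnmt3L Het. The direction of the endothelial median did not turn in either line.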

How the results depend on the processing

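The smooth muscle result rested on the control chosen. Its median log2 difference in the Pld6 KO was 1.81 against the Pld6 WT and -0.16 without control replicate 2 (the Pld6 WT), that is against the Dnmt3L Het. In the Dnmt3L KO it was -1.24 against the Dnmt3L Het and 0.91 without control replicate 1 (the Dnmt3L Het). Against the mean of both controls these medians were 0.51 and -0.54. For the endothelial set in the Pld6 KO the median of 1.26 became 1.55 with a pseudocount of 0.1 FPKM and 1.42 with TMM-normalized CPM, and it was 1.26 without control replicate 2. In the Dnmt3L KO the endothelial median was -0.29 with the pseudocount of 0.1, -0.27 with CPM, -0.25 against the mean of both controls and -0.29 without control replicate 1, and between the controls it was -0.28 under each of the first 2 settings. On the FPKM + 1 scale, genes of the 10 above both controls in the Pld6 KO numbered 0 at a 3-fold threshold, at which the background was not counted. As a plain ratio of FPKM, Tek was 3.65-fold above the higher control. At the 2-fold threshold the count was 4 to 8 when 1 control was left out. With 1 control, 0 to 1 (Actg2) lay below in the Pld6 KO, 0 to 2 above and 0 to 4 below in the Dnmt3L KO. Of all genes, edgeR called 437 in the Pld6 KO and 429 in the Dnmt3L KO without a filter on low counts, and DESeq2 called 972 and 936, against 0 and 0 as reported. No model called any of the 10. No member's sign changed in 30 differences under either other scaling (pseudocount of 0.1 FPKM, CPM). The cause of these shifts was not tested. With 1 control left out, edgeR has 0 residual degrees of freedom, so no test was run. No paired analysis was possible because the labels carry no replicate numbers and each mutant has 1 library.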
